A study of Mus musculus with 6 samples.

Results

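Transcripts of 46 genes of DNA replication and mitosis were examined in mouse skin, 23 genes of replication and 23 of mitosis, among the 26579 genes of the count table. The genes were chosen by name from a list, each was found under exactly 1 identifier of the GENCODE M21 annotation of GRCm38, and all 46 passed the filter on low counts that left 15102 genes for testing. RNA-Seq was carried out on whole-skin biopsies from the dorsal neck of 3 female YAP2-5SA-∆C mice (TG1 to TG3) and 3 female wild type littermates (WT1 to WT3), all 33 days old. YAP is the transcriptional cofactor on which the Hippo pathway acts. The transgene encodes a mutant form of YAP that is mildly activated, and is expressed in basal keratinocytes. At the age of sampling, skin changes could just be seen from outside. The comparison asks whether the transcripts that cells make for S phase and for mitosis differed between the genotypes in whole skin, with replication and mitosis kept apart and each library looked at singly.

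Before S phase, the origin recognition complex, CDC6 and CDT1 load the MCM2-7 helicase onto DNA, and CDC45 and the GINS complex then activate it. The genes for these proteins are switched on by E2F factors when the kinases of cyclin D, and then of cyclin E, inactivate the RB family of repressors. Genes for mitosis are switched on later, in G2, by B-MYB and FOXM1 acting with the MuvB complex, which binds a short DNA element called CHR that often lies near CCAAT boxes. In skin, dividing cells are found mainly in the basal layer of the epidermis and in the matrix of growing hair follicles, so a whole biopsy mixes both sources.

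Total counts per library ranged from 11225705 to 19505036. Levels are given as CPM, counts per 1000000 counts of the library after TMM scaling. The members were well covered, from 58 counts for *E2f1* in WT3 to 12538 counts for *Mki67* in TG1. The transgene could not be checked by its own reads, because it is not known whether they were counted on *Yap1*, whose CPM lay at 124 to 141 in wild type and 129 to 144 in YAP2-5SA-∆C skin. The skin identity of the samples was clear from *Krt14*, a basal keratin, at no less than 1626 CPM in every library. The labels name separate mice of one group only by replicate number, so p-values measure the spread between these libraries.

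Promoter sequences are printed for some of the members described below, as examples of E2F words in replication genes and of CHR words in mitosis genes. RefSeq promoter windows of GRCm38.p6, from 250 bases before a start site to 50 bases after it, were matched for 38 of the 46 members (20 replication and 18 mitosis genes). Capitals mark the motif word on the strand of the gene, 5′ to 3′, and the position is that of its first base relative to the start site, which counts as 0. The first pair holds E2F words of replication genes. In *Cdc6* (chr11:98908002-98908031, plus strand) the word lay at -138, and *Rfc3* (chr5:151651190-151651219, minus strand) held 2 words, the second of them at 0.

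Cdc6: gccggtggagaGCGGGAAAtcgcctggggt
Rfc3: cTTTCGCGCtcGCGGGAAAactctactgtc

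The next set holds CHR words of mitosis genes, which lay within 100 bases of the start site. Where a window held several words, as in *Cdk1*, *Top2a* and *Mki67*, the one nearest to the start site is shown. The regions are *Cdk1* (chr10:69352910-69352939, minus strand, word at -15), *Cenpf* (chr1:189688067-189688096, minus strand, word at 2), *Aurka* (chr2:172370521-172370550, minus strand, word at 32), *Top2a* (chr11:99024195-99024224, minus strand, word at -23) and *Mki67* (chr7:135716460-135716489, minus strand, word at -98).

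Cdk1: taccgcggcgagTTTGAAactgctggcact
Cenpf: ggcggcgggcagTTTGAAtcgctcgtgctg
Aurka: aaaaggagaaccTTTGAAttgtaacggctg
Top2a: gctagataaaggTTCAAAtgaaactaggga
Mki67: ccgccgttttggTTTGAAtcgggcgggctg

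A CHR word (TTTGAA or TTCGAA, either strand) was present in 14 of 18 mitosis genes (77.8%) and 5 of 20 replication genes (25%), against 21.7% of all genes with a window. An E2F word (TTTGGCGC, TTTCCCGC, TTTGCCGC or TTTCGCGC, either strand) was present in 8 of 20 replication genes (40%), namely *Mcm3*, *Mcm5*, *Mcm6*, *Mcm7*, *Cdc6*, *Cdt1*, *Pola1* and *Rfc3*, and in 1 of 18 mitosis genes (5.56%), *Cdk1*, against 2.6% of all genes. CCAAT was found in 16 of 18 mitosis genes (88.9%), 13 of 20 replication genes (65%) and 41.1% of all genes. The TEAD word GGAATG, the core of the sequence bound by the partners of YAP, was found in 2 of 18 mitosis genes (11.1%), *Nusap1* and *Ube2c*, in 1 of 20 replication genes (5%), *Mcm3*, and in 16.6% of all genes. The printed sequences leave out the CHR words of the replication genes *Mcm2* (at -70) and *Rfc3* (at -189) and the E2F word of *Cdk1* (at -131). *Mcm2*, *Pcna*, *Rrm2* and *E2f1* held no E2F word, and *Ccnb1* held no CHR word. In *Mcm7*, a CCAAT match shared bases with an E2F match, and no other match shared bases with one of another motif. These are matches of letters within the window and describe no binding.

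None of the 46 members passed the test for a difference between YAP2-5SA-∆C and wild type skin. In edgeR's quasi-likelihood test over all 15102 genes, with a Benjamini-Hochberg adjusted p (FDR) below 0.05, 288 genes were called (1.91%), with 218 above (1.44%) and 70 below (0.464%) the wild type level, and the members gave 0 of 23 among the replication genes and 0 of 23 among the mitosis genes. With so small a share of all genes called, a count of 0 does not set the members apart. The lowest FDR of a replication gene was 0.117 for *E2f1* and that of a mitosis gene was 0.214 for *Aurka*. At an unadjusted quasi-likelihood p below 0.05, 1 member was higher (*E2f1*) and 0 were lower, whereas 13.3% of all genes were higher and 13.0% lower at that level. The other tests also called 0 of 46 members, among 10.4% of all genes called in either direction by the likelihood-ratio test, 1.65% by voom and 10.5% by DESeq2. Since biopsies mix cells, fewer cells of a type and less RNA per cell cannot be told apart in these values.

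How large a difference the data still allow can be given for the whole biopsy only, not for any 1 kind of cell within it. The 95% interval of the log2 fold change ended below a 1.5-fold increase in 22 of 23 replication genes, with *E2f1* the exception, and in 23 of 23 mitosis genes. At the other end, all 23 replication and all 23 mitosis genes had an interval that stopped short of a 1.5-fold decrease. The median standard error on the log2 scale was 0.0913 in the replication and 0.0982 in the mitosis genes. The median log2 fold change was -0.03 in the replication genes (range -0.17 to 0.38) and -0.12 in the mitosis genes (range -0.20 to 0.15), beside -0.01 over all genes tested. A value above 0 was found in 6 of 23 replication and 5 of 23 mitosis genes, and in 47.6% of all genes.

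**Figure D1:**
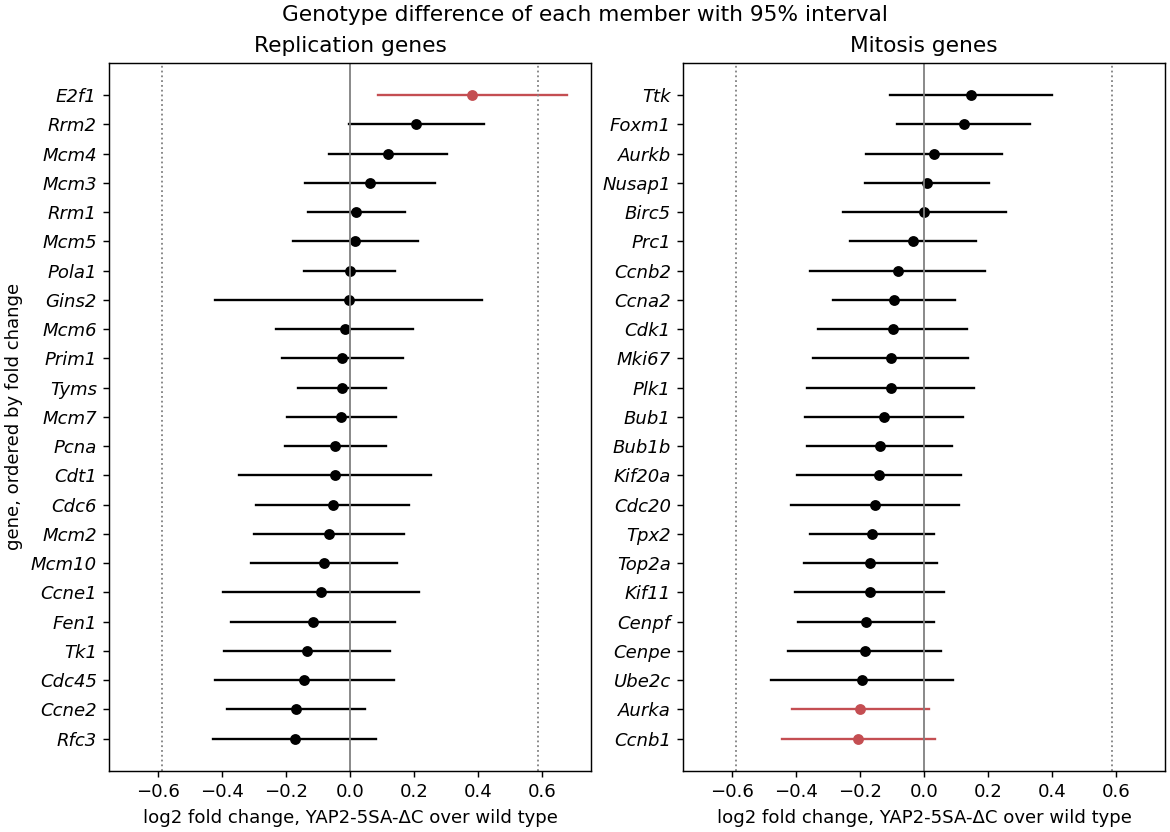
Log2 fold change of YAP2-5SA-∆C over wild type skin (x axis) for each replication gene (left) and mitosis gene (right), ordered by size, with bars for the 95% interval from edgeR's quasi-likelihood fit (3 libraries per genotype). Red marks genes whose 2 genotypes did not overlap and dotted lines mark 1.5-fold in each direction. Only *E2f1* has a bar that passes a dotted line, and of the 46 bars only that of *E2f1* leaves out 0.

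Among the replication genes, the factors that license origins lay close to the wild type level. The 8 licensing genes, *Mcm2* to *Mcm7*, *Cdc6* and *Cdt1*, had a median log2 fold change of -0.02, 3 of them above 0, and the genotypes overlapped in all 8. The median was 0.06 without WT1 and -0.05 without WT2. *Mcm2*, a subunit of the replicative helicase, had 43.1, 34.5 and 35.6 CPM in WT1, WT2 and WT3 and 34.2, 37.3 and 36.7 CPM in TG1, TG2 and TG3. The single highest value was that of WT1, and the other wild type libraries lay within the transgenic range. Its log2 fold change was -0.07 (SE 0.0985, quasi-likelihood FDR 0.708). *Mcm4*, another helicase subunit, had 51.7, 43.3 and 46.2 CPM in wild type and 51.9, 51.9 and 49.6 CPM in YAP2-5SA-∆C libraries, so that only WT1 reached the transgenic level. That gave a log2 fold change of 0.12 (SE 0.0781, quasi-likelihood FDR 0.371). *Cdc6*, which loads the helicase, lay between 11.8 and 14.4 CPM in all 6 libraries with a log2 fold change of -0.05 (quasi-likelihood FDR 0.765).

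The 8 genes of helicase activation and of the fork (*Mcm10*, *Gins2*, *Cdc45*, *Pola1*, *Prim1*, *Pcna*, *Rfc3* and *Fen1*) had log2 fold changes of -0.17 to -0.00, with a median of -0.06, and none was called. That median was -0.01 without TG2 and -0.14 without WT2. *Pcna*, the sliding clamp of the DNA polymerases, had 74.3, 71.1 and 65.1 CPM in wild type and 68.0, 69.5 and 66.6 CPM in YAP2-5SA-∆C libraries, which is within the wild type range. *Rfc3*, a subunit of the clamp loader, had 14.3, 11.8 and 12.5 CPM in wild type and 12.2, 11.4 and 10.7 CPM in YAP2-5SA-∆C libraries. TG2 and TG3 were below all wild type libraries, but TG1 was not, and the log2 fold change was -0.17 (SE 0.107, quasi-likelihood FDR 0.349). Most exon bases of *Fen1* (78.8%) and *Gins2* (67.3%) overlap a gene on the other strand, *Gm10143* and *Gse1*. The strand setting of the counting is not given in the sources used here, and these levels are therefore uncertain.

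Of the 4 genes that supply nucleotides (*Tyms*, *Rrm1*, *Rrm2* and *Tk1*), 2 had values above 0, and their median was -0.00, with 0.04 without WT1 and -0.03 without WT2. *Rrm2*, the S-phase subunit of ribonucleotide reductase, had 34.3, 28.7 and 29.7 CPM in wild type and 37.97, 34.2 and 34.9 CPM in YAP2-5SA-∆C libraries. WT1 lay just above TG2, and so the genotypes overlapped. The log2 fold change was 0.21 (SE 0.0892, 95% interval -0.00 to 0.42, quasi-likelihood FDR 0.196). Its partner *Rrm1* had a log2 fold change of 0.02 (quasi-likelihood FDR 0.871).

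*E2f1*, the activating E2F factor that drives entry into S phase (chromosome 2 of GRCm38, 154559407 to 154569892), was the only member with higher levels in all YAP2-5SA-∆C libraries. It had 6.80, 5.69 and 5.51 CPM in WT1, WT2 and WT3 and 7.66, 7.46 and 8.41 CPM in TG1, TG2 and TG3. The 2 genotypes did not overlap, as was the case for 15.5% of all genes in this direction. The log2 fold change was 0.38 (SE 0.125, 95% interval 0.09 to 0.68), and the quasi-likelihood FDR was 0.117. It had the third lowest level of all members per kilobase of exons, at 1.90 CPM per kilobase in wild type skin. The cyclin genes of the same step pointed the other way, with *Ccne1* at -0.09 (-0.19 to -0.02 with 1 library omitted, quasi-likelihood FDR 0.690) and *Ccne2* at -0.17 (quasi-likelihood FDR 0.286). *Ccne2* had 21.7, 20.2 and 24.5 CPM in wild type and 19.9, 20.3 and 18.9 CPM in YAP2-5SA-∆C libraries, where TG2 lay just above WT2. Part of its exons (17.4% of the bases) overlaps *Ints8* on the other strand.

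**Figure D2:**
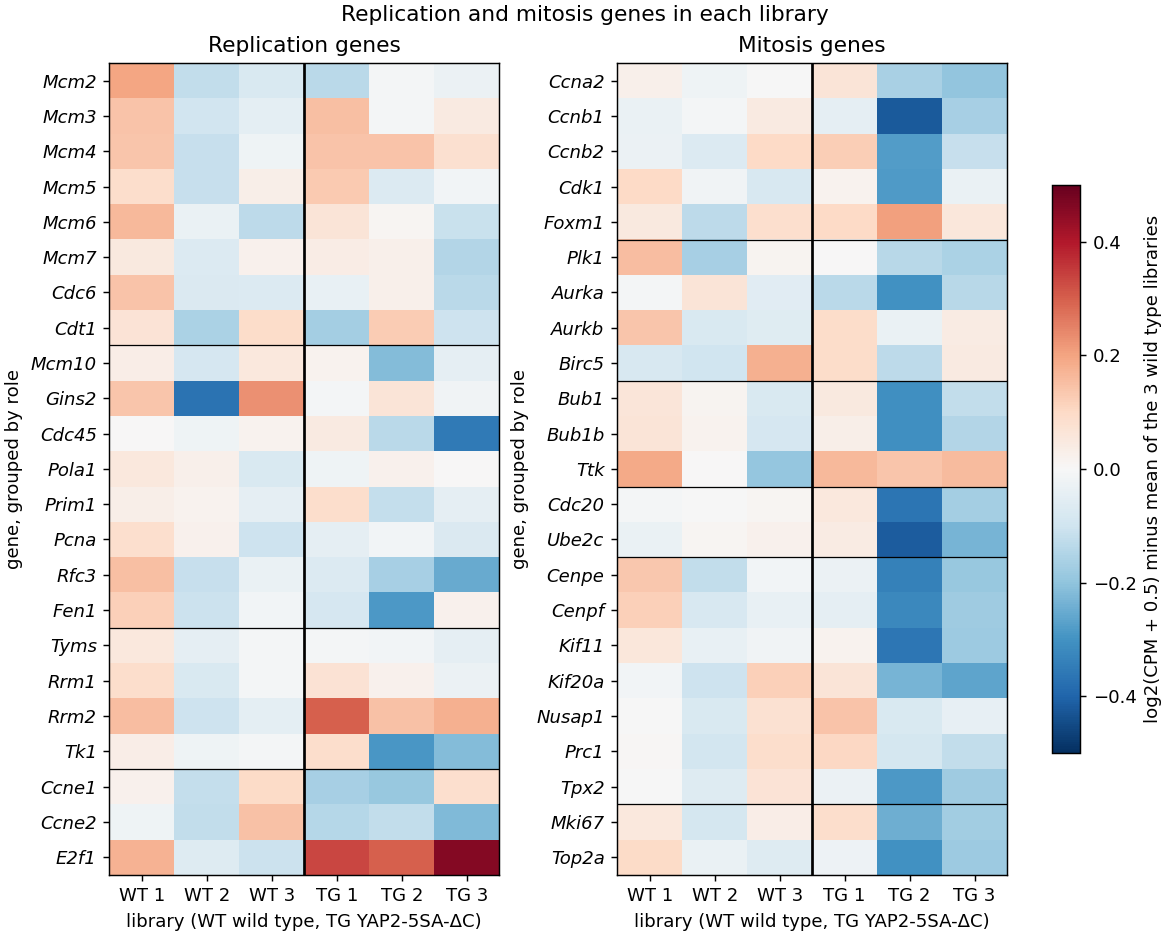
Level of each replication gene (left) and mitosis gene (right) in each library, as log2(CPM + 0.5) minus the mean of the 3 wild type libraries (colour, red higher and blue lower), with genes in rows by role and libraries in columns. *E2f1* is red in TG1 to TG3, and the mitosis panel is bluest in TG2, the lowest library for 15 of its 23 genes.

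The mitosis genes lay slightly below the wild type level in 2 of the 3 transgenic libraries. *Ccnb1* and *Cdk1* encode cyclin B1 and its kinase, which together start mitosis. *Ccnb1* (chromosome 13, 100778650 to 100786570) had 43.6, 44.3 and 46.1 CPM in wild type and 43.3, 33.2 and 39.8 CPM in YAP2-5SA-∆C libraries. The genotypes did not overlap, although TG1 was only just below WT1, and the log2 fold change was -0.20 (SE 0.101, quasi-likelihood FDR 0.247). *Cdk1* had 37.7, 34.7 and 33.2 CPM in wild type and 35.6, 28.8 and 34.4 CPM in YAP2-5SA-∆C libraries, with only TG2 outside the wild type range. The log2 fold change of *Cdk1* was -0.10 (SE 0.0982, quasi-likelihood FDR 0.560). *Foxm1*, the transcription factor of the G2 programme, stood at 21.9, 19.3 and 22.5 CPM in wild type and 22.8, 24.5 and 22.1 CPM in YAP2-5SA-∆C libraries. TG2, which had the lowest *Ccnb1* and *Cdk1*, had the highest *Foxm1*, and the log2 fold change was 0.12 (SE 0.0876, quasi-likelihood FDR 0.406).

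Of the mitotic kinases and the passenger complex, *Aurka* stood apart by its values. *Aurka* (chromosome 2, 172356190 to 172370535), the kinase of centrosomes and spindle poles, had 14.2, 14.9 and 13.7 CPM in wild type and 12.9, 11.4 and 12.9 CPM in YAP2-5SA-∆C libraries. The genotypes did not overlap, and the log2 fold change was -0.20 (SE 0.0905, quasi-likelihood FDR 0.214). *Ccnb1* and *Aurka* were the only members of the 46 with all transgenic libraries below all wild type libraries, whereas 18.2% of all genes showed that order. *Plk1* was at -0.10, while *Aurkb* and *Birc5*, which form the chromosomal passenger complex with other proteins, were at 0.03 and 0.00. The spindle checkpoint genes *Bub1*, *Bub1b* and *Ttk* had log2 fold changes of -0.12, -0.14 and 0.15, and *Cdc20* and *Ube2c*, which act with the anaphase-promoting complex, had -0.15 and -0.19. None of these was called. Over the fits that omitted 1 library, the values ranged from -0.19 to -0.01 in *Plk1*, -0.01 to 0.11 in *Aurkb*, -0.05 to 0.11 in *Birc5*, -0.20 to -0.02 in *Bub1*, -0.21 to -0.04 in *Bub1b*, 0.07 to 0.26 in *Ttk*, -0.25 to -0.04 in *Cdc20* and -0.31 to -0.07 in *Ube2c*. In *Ube2c*, 22.8% of the exon bases overlap the muscle gene *Tnnc2* on the other strand, and in *Kif20a*, a midzone kinesin, 29.3% overlap *Cdc23*.

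The 7 genes of the kinetochore, spindle and midzone (*Cenpe*, *Cenpf*, *Kif11*, *Kif20a*, *Nusap1*, *Prc1* and *Tpx2*) had a median log2 fold change of -0.16, 6 of them below 0. Without TG2 the median was -0.08, and without TG1 it was -0.23. *Cenpf*, a kinetochore protein of G2 and mitosis, had 121, 106 and 109 CPM in wild type and 108, 89.2 and 98.7 CPM in YAP2-5SA-∆C libraries, with TG1 inside the wild type range. Its log2 fold change was -0.18 (SE 0.0900, quasi-likelihood FDR 0.249). *Tpx2*, which activates Aurora A on the spindle, had 52.2, 49.9 and 54.8 CPM in wild type and 51.1, 42.7 and 46.2 CPM in YAP2-5SA-∆C libraries. Here, too, TG2 and TG3 lay below all wild type libraries and TG1 did not, with a log2 fold change of -0.16 (SE 0.0819, quasi-likelihood FDR 0.253).

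*Mki67* and *Top2a*, the most used markers of dividing cells, had the highest levels of all members per kilobase of exons in wild type skin, at 65.1 and 32.6 CPM per kilobase, followed by *Pcna* at 29.3. *Mki67*, which coats mitotic chromosomes, had 679, 615 and 670 CPM in wild type and 696, 552 and 581 CPM in YAP2-5SA-∆C libraries. TG1 was the highest of the 6 libraries, and TG2 and TG3 were the lowest, so that the difference between the genotypes (log2 fold change -0.10, SE 0.102, quasi-likelihood FDR 0.554) was smaller than the spread among the transgenic libraries. *Top2a*, the topoisomerase that untangles sister chromosomes, had 314, 287 and 281 CPM in wild type and 289, 238 and 259 CPM in YAP2-5SA-∆C libraries. TG1 lay inside the wild type range, and the log2 fold change was -0.17 (SE 0.0871, quasi-likelihood FDR 0.268).

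Looked at singly, the transgenic libraries differed more in the mitosis than in the replication genes, whereas the wild type libraries did not. The median over the 23 replication genes of log2(CPM + 0.5), relative to the wild type mean, was 0.09, -0.08 and -0.01 in WT1, WT2 and WT3 and 0.02, -0.01 and -0.04 in TG1, TG2 and TG3. All 3 transgenic medians thus lay between those of WT1 and WT2. The median over the mitosis genes was 0.05, -0.07 and 0.01 in the wild type libraries and 0.05, -0.28 and -0.16 in TG1, TG2 and TG3. TG2 and TG3 were below every wild type library, while TG1 was at the level of WT1. TG2 was the lowest library for 15 of 23 mitosis genes and 5 of 23 replication genes, and for 26.8% of all genes. WT1 was the highest for 10 of 23 genes in both groups, and for 16.2% of all genes.

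The mitosis median minus the replication median was -0.04, 0.02 and 0.02 in WT1, WT2 and WT3, and 0.03, -0.27 and -0.11 in TG1, TG2 and TG3. The order of the libraries bears on the genotype values. Without TG1, the median log2 fold change of the mitosis genes was -0.20, and 10 of 23 were lower at an unadjusted quasi-likelihood p below 0.05, beside 10.7% of all genes in that fit, but 0 had an FDR below 0.05. Without TG2 it was -0.04, with 0 of 23 lower at an unadjusted p below 0.05, beside 9.38% of all genes in that fit. The medians of the 6 groups of mitosis genes by role ranged from -0.28 to -0.08 without TG1 and from -0.08 to 0.01 without TG2. Single genes shifted likewise, with log2 fold changes without TG2 of -0.09 in *Ccnb1*, -0.13 in *Aurka*, -0.10 in *Cenpf*, -0.09 in *Tpx2*, -0.09 in *Top2a* and -0.02 in *Mki67*, and without TG1 of -0.27, -0.21, -0.23, -0.21, -0.22 and -0.19 in the same order. The replication median ranged from -0.06 to 0.01 over the fits that each omitted 1 library.

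Markers of hair follicle and basal epidermal cells were read in the same libraries. The list of hair matrix and hair shaft markers also holds genes of the inner root sheath, *Krt25*, *Krt27*, *Krt71* and *Tchh*. The geometric mean of its 14 measured markers was 235, 279 and 276 CPM in WT1, WT2 and WT3 and 135, 37.4 and 154 CPM in TG1, TG2 and TG3. TG2, the lowest in the mitosis genes, was also the lowest here, while TG1 had hair markers below every wild type library and mitosis genes at the wild type level. Of these markers, 0 of 14 had an FDR below 0.05 with all libraries (median log2 fold change -1.25). Without TG2, 12 of 14 were called lower while the median was nearer to 0, at -0.83, and the share of all genes called lower was 2.74% in that fit. Examples with all libraries are *Foxn1*, a factor of hair differentiation, at -1.11 (quasi-likelihood FDR 0.0618) and *Msx2*, a factor of the hair matrix, at -1.13 (quasi-likelihood FDR 0.0811). Basal keratinocyte markers had a geometric mean of 330, 257 and 286 CPM in wild type and 374, 485 and 356 CPM in YAP2-5SA-∆C libraries. All 8 had a log2 fold change above 0 (median 0.54) and 1 was called, *Krt14*, higher by 0.95 (quasi-likelihood FDR 0.0300). Without WT2, WT3 or TG3, fits in which no gene at all was called, 0 of the 8 were called, and without TG2, 2 of the 8 were called with a median of 0.38. The part of hair follicle and basal cells in the values of the replication and mitosis genes was not tested.

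**Figure D3:**
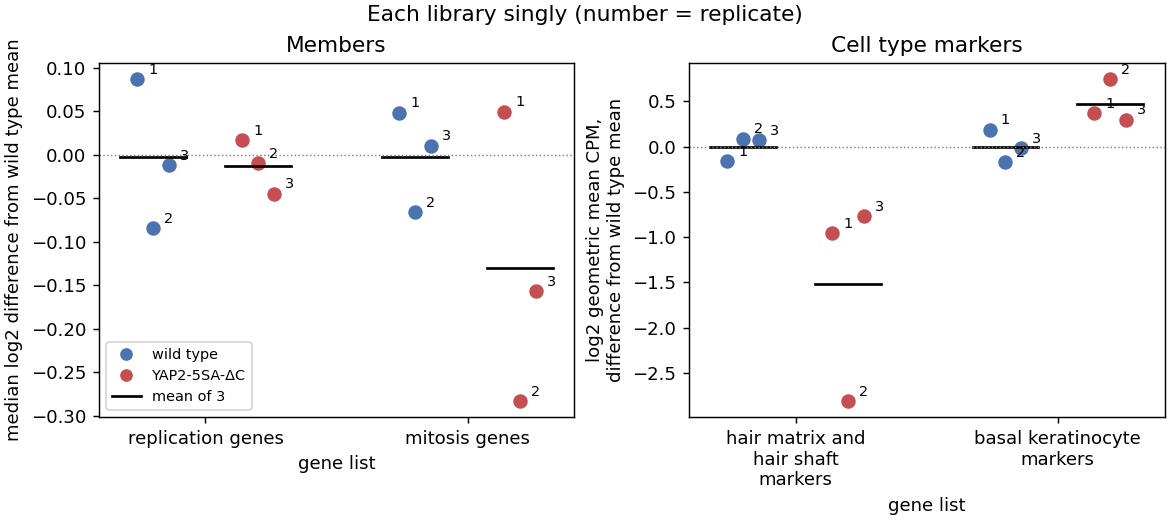
Left, the median over the 23 replication and the 23 mitosis genes of the log2 difference from the wild type mean, 1 point per library (number, replicate; blue, wild type; red, YAP2-5SA-∆C; bar, mean of 3). Right, the log2 geometric mean CPM of hair matrix and hair shaft markers (a list that also holds inner root sheath genes) and of basal keratinocyte markers on the same kind of scale with a wider axis. TG2 is lowest in the mitosis genes (-0.28) and in the hair markers (37.4 CPM), and highest in the basal markers (485 CPM).

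Other genes of the same processes were read from wider lists. Of 40 other replication genes, 0 were called, with a median log2 fold change of -0.01 (0.03 without WT1) and 19 above 0. The lowest p-values were those of *Mcm8*, a helicase of DNA repair, at -0.36 (quasi-likelihood FDR 0.0959), and *Dut*, which keeps uracil out of DNA, at -0.25 (quasi-likelihood FDR 0.154). Of 45 other mitosis genes, 0 were called, with a median of -0.03 (0.02 without TG2) and 13 above 0. *Pttg1*, which encodes securin, was at 0.29 (quasi-likelihood FDR 0.128), and *Cdc25c*, the phosphatase that activates CDK1, was at -0.43 (quasi-likelihood FDR 0.142). At an unadjusted p below 0.05, 3 of the other replication genes were lower and 0 higher, and 1 of the other mitosis genes was lower and 1 higher, beside 13.0% of all genes lower and 13.3% higher.

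Of 18 regulators of both programmes, from the E2F, RB and MuvB families, 0 were called. Their median log2 fold change was -0.12, and 4 of 18 were lower at an unadjusted p below 0.05, beside 13.0% of all genes. *E2f5*, a repressor E2F, had 11.7, 11.9 and 11.8 CPM in wild type and 9.60, 8.51 and 9.65 CPM in YAP2-5SA-∆C libraries, with no overlap between the genotypes. The log2 fold change was -0.35 (quasi-likelihood FDR 0.0769), opposite in sign to that of *E2f1*. *Rb1*, the retinoblastoma repressor, was at -0.21 (quasi-likelihood FDR 0.106). Among 17 genes of checkpoints and S-phase repair, 0 were called (median -0.04, and -0.11 without WT2), with *Atr*, the kinase that senses stalled forks, at -0.24 (quasi-likelihood FDR 0.0618) and *Brca1*, a factor of recombination repair, at -0.26 (quasi-likelihood FDR 0.0900).

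Of the members and the other cell cycle lists, the histone genes that are transcribed in S phase had the median furthest from 0. Of 57 replication-dependent histone genes in the table, 49 passed the filter, 0 were called, and 14 of 49 were lower and 0 higher at an unadjusted p below 0.05, beside 13.0% of all genes lower and 13.3% higher. Their median log2 fold change was -0.24 with all libraries and -0.15 without TG2, where 1 of them was called lower. Their summed level was 2161, 2153 and 2270 CPM in WT1, WT2 and WT3 and 2006, 1684 and 2020 CPM in TG1, TG2 and TG3. All transgenic sums were below all wild type sums, with TG2 again the lowest. *Hist1h4j* was at -0.35 (quasi-likelihood FDR 0.0798) and *Hist1h4m* at -0.49 (quasi-likelihood FDR 0.0947). Many histone genes are near-identical copies and only uniquely mapped reads were counted, so single genes are uncertain, and most of these transcripts lack a poly(A) tail, while the sources used here name both mRNA libraries and a total RNA kit.

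**Figure D4:**
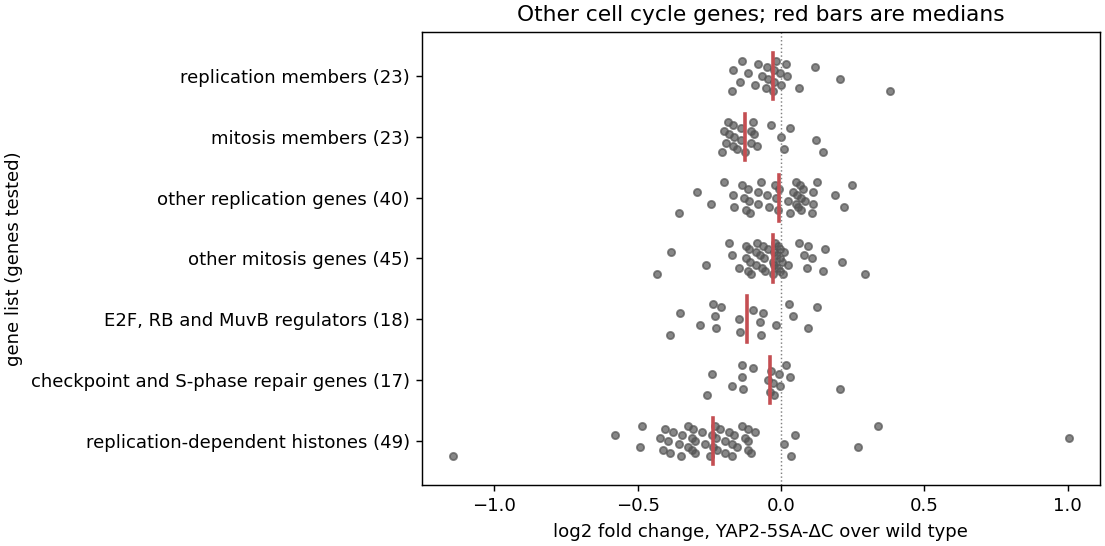
Log2 fold change of YAP2-5SA-∆C over wild type skin (x axis) for each tested gene of the members and of 5 other lists (rows, with the number of genes tested), with a red bar at the median. The medians run from -0.24 in the histone genes to -0.01 in the other replication genes, and most points lie within 0.5 of 0.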

How the data were processed

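The authors mapped 75-nucleotide reads to GRCm38 with TopHat2 (2.0.12 in the submitters' processing notes, another release in the study's methods) and Bowtie2 2.1.0, used HTSeq-count for reads that mapped uniquely, and deposited raw counts per Ensembl gene. The annotation release and strand setting are not given in the sources used here, and 558 identifiers are absent from GENCODE M21. The labels name a total RNA kit, the methods mRNA libraries.

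Genes that reached 1 CPM in 3 or more libraries were scaled by TMM and tested with estimateDisp, glmQLFit (bias-adjusted) and glmQLFTest of edgeR 4.0.16 (R 4.3.3), with genotype as the only term and Benjamini-Hochberg adjustment over all genes tested. The standard error is the size of the log2 fold change divided by the square root of the F statistic. DESeq2 1.42.0, voom (limma 3.58.1), other scalings and filters, the replicate number as a block and fits without single libraries were alternatives.

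Members and lists were chosen with earlier results of these data known. Values per library are given for the members with an FDR below 0.05, the 5 lowest p-values in replication and in mitosis, and *Mcm2*, *Pcna*, *Cdc6*, *E2f1*, *Rrm2*, *Mki67*, *Top2a*, *Ccnb1*, *Cdk1* and *Foxm1*. Of other lists, genes with an FDR below 0.05 or otherwise the 2 lowest p-values are named.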

Additional observations from a re-analysis of the deposited data

How the results depend on the processing

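No member was called under any of the 16 alternatives, which were 3 other scalings, a library size without mitochondrial genes, 2 other filters, 3 other tests, a replicate block and the omission of each of the 6 libraries. The median log2 fold change of the replication genes changed sign with total counts only (0.0074) and ranged from -0.060 to 0.0096 when 1 library was left out, with 0.0096 without WT1. The median of the mitosis genes stayed below 0 throughout, from -0.20 without TG1 to -0.04 without TG2. Over the omissions of 1 library, 13 of 23 replication and 6 of 23 mitosis genes changed sign at least once. Among the genes with values given per library these were *Mcm2* (0.048), *Cdc6* (0.030) and *Pcna* (0.0033) without WT1, and *Cdk1* (0.0057) without TG2, and their lowest values over these fits were -0.13, -0.093, -0.087 and -0.14. Of the genes with values given per library, those that kept their sign and moved by over 1.5 times were *Mcm4* (0.20 without WT1, 0.06 without WT2), *Rfc3* (-0.08 without WT1), *Ccne2* (-0.08 without WT3), *Foxm1* (0.06 without WT2), *Cenpf* (-0.11 without WT1), *Top2a* (-0.11 without WT1) and *Mki67* (-0.07 without TG3), beside those given above for TG1 and TG2. *E2f1* kept its sign, with log2 fold changes of 0.33 to 0.49 and FDR values of 0.0976 to 0.295 when 1 library was left out, and FDR values of 0.234, 0.118 and 0.236 by the likelihood-ratio test, voom and DESeq2. Over all genes, the quasi-likelihood test called 288 genes, the likelihood-ratio test 1568, DESeq2 1590, the test without a low-count filter 497 and with total counts only 444. Without WT1 it called 142 genes, without TG1 83, without TG2 817, and 0 without WT2, WT3 or TG3, where 2726, 2844 and 3692 genes had an unadjusted p below 0.05. With the replicate block, 0 genes were called (2949 at an unadjusted p below 0.05), and the medians were -0.03 in the replication and -0.13 in the mitosis genes. The deviations of same-numbered libraries from their genotype means correlated at -0.34, -0.24 and -0.06. With only 3 libraries around each mean, these values cannot show whether equal replicate numbers mark a pair. In windows from 100 bases before to 50 after the start site, CHR words were found in 10% of the replication genes, 77.8% of the mitosis genes and 9.87% of all genes, E2F words in 25%, 0% and 1.45%, and TEAD words in 5%, 0% and 8.13%.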

Other observations

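Lists of markers for other cell types in the biopsies gave these values, which belong to no comparison of replication or mitosis. The median log2 fold change of YAP2-5SA-∆C over wild type skin was 0.41 in 8 suprabasal keratinocyte markers (0 called by edgeR's quasi-likelihood test), 0.72 in 7 sebaceous gland markers (1 called, *Soat1*, 0.94), 0.29 in 7 fibroblast markers (0 called), 0.20 in 7 endothelium markers (0 called) and 0.04 in 7 white adipocyte markers (0 called). Among immune cells it was 0.53 in 7 macrophage markers (2 called, *Csf1r* and *Mrc1*, both 0.54), 0.62 in 7 Langerhans and dendritic cell markers (3 called, *Cd74*, *H2-Aa* and *Itgax*, 0.62, 0.63 and 0.82), 0.58 in 6 mast cell markers (1 called, *Cma1*, 0.59) and 0.44 in 5 T cell markers (0 called). The T cell median was the value of *Thy1*, a gene at 48.7 to 113 CPM, and which cells its reads came from was not tested. The other tested T cell markers, *Cd3e* (0.61), *Cd3g* (0.19), *Lck* (-0.08) and *Cd2* (1.15), lay at only 0.57 to 3.93 CPM. Melanocyte markers had a median of -1.01, with 2 of 7 called lower, *Dct* (-0.80) and *Tyrp1* (-1.16). Skeletal muscle markers had a median of -1.12 with 0 of 7 called, and their summed level ranged from 1356 to 6622 CPM among the wild type libraries alone. In the lists with 0 called, the lowest p-values were those of *Krtdap* (0.85) and *Krt1* (0.72) among suprabasal, *Pdgfrb* (0.39) and *Lum* (0.29) among fibroblast, *Pecam1* (0.32) and *Vwf* (0.34) among endothelium, *Plin1* (0.23) and *Cfd* (0.16) among white adipocyte, *Cd2* (1.15) and *Thy1* (0.44) among T cell, and *Mylpf* (-1.19) and *Myh4* (-1.19) among skeletal muscle markers, given with their log2 fold changes. Single libraries moved several of these values. The suprabasal median was 0.65 without TG3. Without TG2 the median was 0.15 in the suprabasal markers (2 called), 0.19 in the T cell markers and -0.74 in the melanocyte markers (6 called lower). The T cell median was 0.27 without WT2, the skeletal muscle median was -0.71 without WT2, and the white adipocyte median ranged from -0.04 to 0.21. The endothelium median was 0.32 without TG1 and 0.13 without TG3, and that of the fibroblast markers was 0.19 without WT2. The macrophage and mast cell calls were lost without WT1, the Langerhans and dendritic cell and the sebaceous gland calls without TG1, and the melanocyte calls without WT1 or TG1, while 0 markers were called without WT2, WT3 or TG3. Other omissions added calls, with 3 sebaceous gland markers called without WT1 and 3 mast cell markers without TG1. Without TG2, 2 sebaceous gland, 2 mast cell, 3 macrophage and 4 Langerhans and dendritic cell markers were called.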
